A study of Mus musculus with 24 samples.

Results

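The 10 glycolytic enzymes (Hk1, Gpi1, Aldoa, Aldoc, Tpi1, Pgk1, Eno2, Pkm, Ldha and Ldhb) were followed across 24 regions of mouse brain sections. They were chosen by name as enzymes of the path from glucose to lactate that are present in brain, and all 10 were among the 19962 targets of the deposited table. The assay was GeoMx digital spatial profiling, in which barcoded probes bind RNA in a tissue section and ultraviolet light releases the barcodes of 1 region at a time for sequencing. The 3 animal groups, each of both sexes, gave 4 regions for each of 6 groups: MG-cKO males, BMM-cKO males, WT males, MG-cKO females, BMM-cKO females and WT females. In the submitters' design text the WT group is WT-SAH, and the title speaks of the time after SAH and of the kinase Lyn, so WT is read here as injured wild type (SAH is subarachnoid haemorrhage, bleeding around the brain) and not as an uninjured baseline. Sham regions were not analysed here. The labels spell out neither cKO abbreviation, name no Cre driver or floxed allele, and give no age and no time after injury.

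Glycolysis splits glucose into pyruvate in the cytosol and yields ATP without oxygen, and lactate dehydrogenase then converts pyruvate to lactate while restoring NAD+. In brain, glycolysis and the oxidation of pyruvate in mitochondria together pay for ion pumping and synaptic transmission. Astrocytes are known for a high glycolytic rate and for exporting lactate, while neurons hold the neuronal enolase Eno2 and much of the lactate dehydrogenase subunit Ldhb. Several genes of the path are known targets of hypoxia-inducible factors.

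The regions and their limits come before the results. Between 1839154 and 10779960 tags were counted per region, with 80 to 453 tags for Ldha, the least counted of the enzymes, and up to 2212 for Pkm. A probe without a mouse target, the negative probe, had 0.894 to 0.997 times the signal of the median target, so most of the panel was near background. Each level below was divided by this probe's signal in its own region, giving a linear scale on which 1 is background. Changes are log2 differences between group means after each region was centred on its median target, from a limma fit over all 9981 targets that passed a filter on low values, and "passed" means an adjusted p under 0.05 there. All 10 enzymes passed the filter. No label ties a region to an animal; should regions of a group share an animal, every p-value given here, since it treats regions as separate samples, is too small. All 12 male regions were on one slide scan and all female regions on another, so sex and scan cannot be told apart. Region titles name IBA1 and TMEM119, with a plus sign at the end in males and none in females. That difference in the titles thus also runs with sex and scan. The sample labels call the cell type "Macrophage", but of 15 measured monocyte and macrophage markers 0 averaged above 2 times the negative probe and 13 lay below 1.2 times it. Of 20 microglia markers 1 averaged above 2 times the negative probe, against 16 of 24 neuron markers. Regions are therefore described as tissue, and in such regions fewer cells of a type and less RNA per cell cannot be told apart. Lyn itself averaged 1.02 ± 0.13 times the negative probe in MG-cKO males, 1.15 ± 0.057 in BMM-cKO males and 1.02 ± 0.017 in WT males (SD, n = 4 each). The female means were 1.04 ± 0.041 (MG-cKO), 1.11 ± 0.10 (BMM-cKO) and 1.11 ± 0.034 (WT; SD, n = 4 each), so at this depth the probe gave no check of the knockout labels.

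One library stands apart. Region 3 of BMM-cKO females had Ttr, the transthyretin gene that choroid plexus expresses strongly, at 361 times the negative probe, against 0.758 to 4.99 times in the other 23 regions. Enpp2, also strongly expressed in choroid plexus, stood at 104 times there, against 1.16 to 2.33 times in the other regions. Both genes were picked after their values were seen. Calls, overlaps, marker counts and correlations that involve BMM-cKO females are given with and without this region; leaving it out of the marker counts, overlaps and correlations was chosen after seeing the data.

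Promoter sequences show how unlike the enzymes are in one property, the core letters that hypoxia-inducible factors are known to bind. In RefSeq promoters of GRCm38.p6, from 250 bases before to 50 bases after a gene's start, ACGTG or GCGTG was searched on both strands. All 10 enzymes matched, with 16 promoters in all. Of these 10 held at least 1 of the motifs, which covers 7 of the 10 genes, and among all 32851 promoters 43.8% held one. This share and those that follow are per promoter, so they stand beside the promoter counts and not the gene counts. ACGTG alone was in 7 promoters of 6 genes (Hk1, Aldoa, Aldoc, Pgk1, Pkm and Ldha), against 19.6% of all promoters. The Aldoa promoters at chr7:126799129-126799428 and chr7:126799205-126799504 overlap and hold the same site, which both promoter counts include more than once. GCGTG was in 32.4% of all promoters, and the Ldhb promoter held GCGTG but not ACGTG. Neither motif was found in these windows of Gpi1, Tpi1 and Eno2. The 4 promoters below are examples with and without the motifs, with motif letters in capitals on either strand. CACGTG reads the same on both strands and counts on each. The Ldha promoter shown (chr7:46845554-46845853, plus strand) held 5 copies of ACGTG and 2 of GCGTG, and the Pgk1 promoter (chrX:106186850-106187149, plus strand) held 2 copies of ACGTG. A further Ldha promoter (chr7:46846832-46847131), not shown, held 2 copies of GCGTG and no ACGTG. The promoters of Gpi1 (chr7:34230287-34230586, minus strand) and Eno2 (chr6:124769624-124769923, minus strand) held none. A match describes letters only and shows no binding.
Ldha: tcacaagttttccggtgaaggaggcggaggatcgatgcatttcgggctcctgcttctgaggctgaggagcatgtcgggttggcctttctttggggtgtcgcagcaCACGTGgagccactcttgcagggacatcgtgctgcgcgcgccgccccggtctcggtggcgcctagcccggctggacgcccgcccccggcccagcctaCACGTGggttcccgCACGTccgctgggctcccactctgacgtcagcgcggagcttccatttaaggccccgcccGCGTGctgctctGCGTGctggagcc
Pgk1: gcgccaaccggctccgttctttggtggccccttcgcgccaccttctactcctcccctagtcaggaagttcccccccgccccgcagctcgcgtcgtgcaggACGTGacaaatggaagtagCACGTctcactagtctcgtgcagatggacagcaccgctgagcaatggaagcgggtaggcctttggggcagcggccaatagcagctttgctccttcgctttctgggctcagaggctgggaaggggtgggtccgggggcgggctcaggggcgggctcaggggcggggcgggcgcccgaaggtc
Gpi1: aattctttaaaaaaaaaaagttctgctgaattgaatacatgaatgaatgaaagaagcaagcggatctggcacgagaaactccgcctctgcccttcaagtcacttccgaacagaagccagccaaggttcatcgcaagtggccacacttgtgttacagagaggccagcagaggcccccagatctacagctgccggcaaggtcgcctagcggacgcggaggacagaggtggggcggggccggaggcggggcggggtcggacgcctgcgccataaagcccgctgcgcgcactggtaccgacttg
Eno2: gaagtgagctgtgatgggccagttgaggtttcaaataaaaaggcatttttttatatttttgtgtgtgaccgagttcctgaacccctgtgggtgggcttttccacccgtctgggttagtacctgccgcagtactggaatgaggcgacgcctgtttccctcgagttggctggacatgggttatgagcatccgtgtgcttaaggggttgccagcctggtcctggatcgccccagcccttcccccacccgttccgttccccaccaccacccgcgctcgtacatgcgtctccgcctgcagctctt

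Of the 10 enzymes 8 averaged above 2 times the negative probe, Pgk1 lay just under that line, and Ldha was near background. Over 24 regions the mean level was 2.08 times the negative probe for Hk1, 2.90 for Gpi1, 5.23 for Aldoa, 4.09 for Aldoc, 3.15 for Tpi1, 1.995 for Pgk1, 4.99 for Eno2, 5.46 for Pkm and 3.28 for Ldhb. Ldha averaged 1.11 and did not reach 2 times the negative probe in any of 24 regions, so fold changes of Ldha understate any change of its transcript. Probes differ in how they bind, so no order between genes is read from these levels. Each gene had 1 value per region, and the splice forms M1 and M2 of Pkm cannot be told apart. Summed over the enzymes, the level was 23.4 to 35.23 in MG-cKO males, 19.28 to 21.98 in BMM-cKO males and 25.54 to 36.85 in WT males. In females it was 44.2 to 70.3 in MG-cKO, 29.13 to 40.84 in BMM-cKO and 22.91 to 33.87 in WT. MG-cKO females thus lay above every other region, and BMM-cKO males lay below all regions of the other 5 groups. The mean share of all targets above 2 times the negative probe also differed between groups. It was 2.39% in MG-cKO, 2.24% in BMM-cKO and 2.32% in WT males. In females it was 6.91% in MG-cKO, 4.59% in BMM-cKO and 3.2% in WT. The part of this panel-wide difference in the enzyme levels was not tested.

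**Figure D1:**
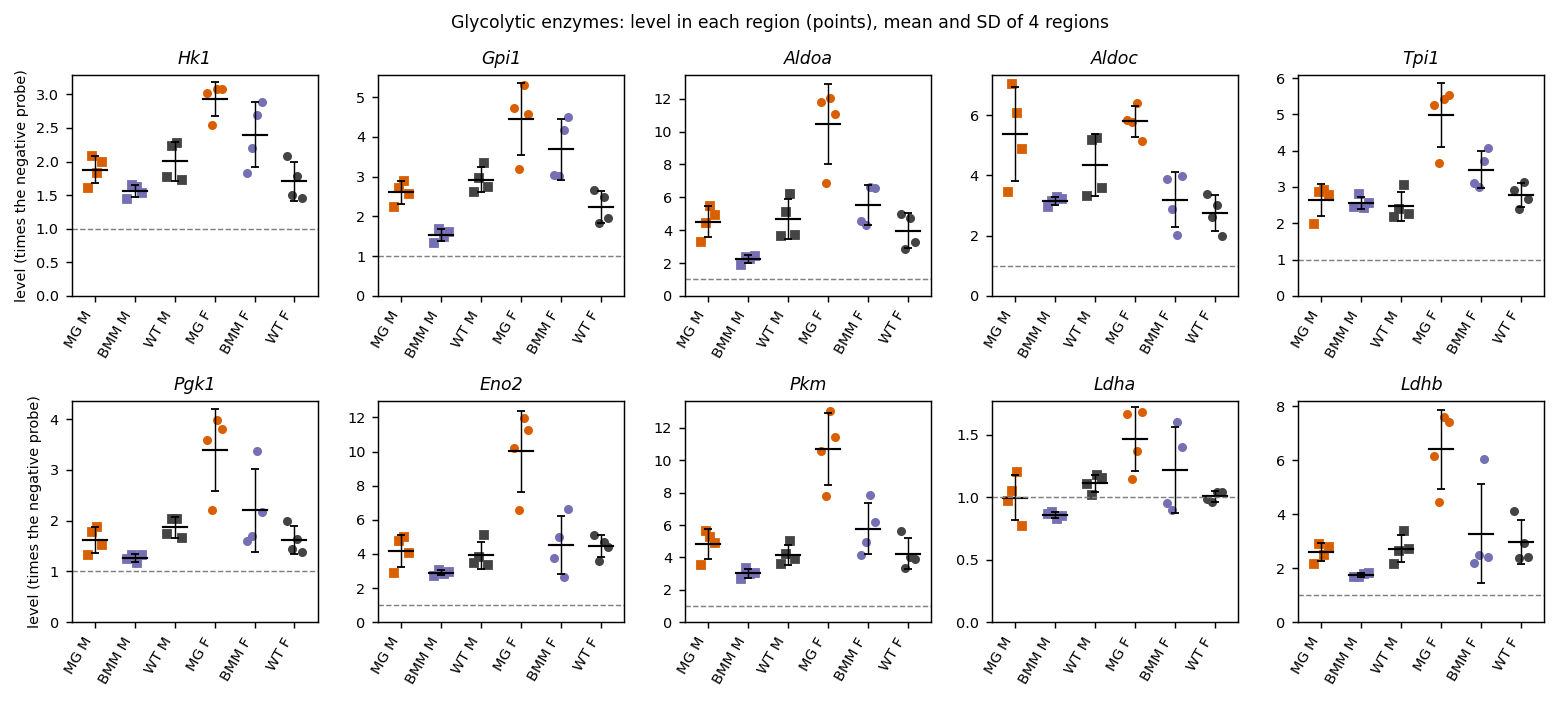
Level of each enzyme (times the negative probe, linear axis) in the 4 regions of each group; squares are males, circles females, the bar is the mean with its SD, and the dashed line is background. MG-cKO females (MG F) had the highest mean for all 10 genes, at 10.45 for Aldoa and 1.47 for Ldha; BMM-cKO males (BMM M) had the lowest mean for 8 of them.

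The order of the 6 group means agreed mainly at its ends, and only Hk1, Gpi1, Aldoa and Pgk1 shared one full order (4 of 10; 3 without region 3 of BMM-cKO females). MG-cKO females had the highest mean for all 10. BMM-cKO males had the lowest mean for 8, while Aldoc was lowest in WT females and Tpi1 was lowest in WT males. Between neighbours in that order the regions mostly overlapped: the first and second groups were apart only for Aldoa, and BMM-cKO males were apart from the next group for Gpi1, Aldoa, Pgk1, Eno2, Pkm and Ldhb. The middle 4 groups overlapped for every enzyme at each step of the order. Without region 3 of BMM-cKO females the ends were unchanged, but MG-cKO females were apart from the next group for Aldoa, Pgk1, Pkm and Ldhb.

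MG-cKO females against WT females asked what the MG-cKO genotype does after injury in females. All 10 enzymes rose, with a median log2 change of 0.94, or 1.32-fold for Ldha to 2.41-fold for Aldoa. Among all 9981 targets 29.8% passed in either direction and 17.9% passed as higher. Among the 626 targets that averaged above 2 times the negative probe, a set taken after values were seen, 48.4% were higher with a median of 0.33. These p-values are over regions, and too small if animals are shared. As ratios to the negative probe, every region of MG-cKO females lay above every region of WT females for all 10 enzymes. Of all targets 22.5% were apart in that direction and 2.57% in the other. The negative probe had 0.894 to 0.945 times the median target's signal in MG-cKO females, against 0.96 to 0.99 times in WT females. A lower probe signal raises these ratios.

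In the first steps, Hk1, the hexokinase that phosphorylates glucose and so keeps it in the cell, stood at 3.016, 2.544, 3.079 and 3.074 times the negative probe in MG-cKO females, against 2.083, 1.499, 1.791 and 1.455 times in WT females. Gpi1, which turns glucose 6-phosphate into fructose 6-phosphate, stood at 4.737, 3.18, 5.305 and 4.57 times in MG-cKO females, against 2.653, 1.846, 2.487 and 1.96 times in WT females. Both groups were apart for these genes, and region 2 was the lowest of the MG-cKO females for each. The log2 change was 0.66 ± 0.11 (SE) for Hk1, with a limma adjusted p of 5.71e-05, and 0.86 ± 0.14 for Gpi1, with 1.98e-05.

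Of the aldolases, which cleave fructose 1,6-bisphosphate, Aldoa stood at 11.81, 6.867, 12.06 and 11.05 times the negative probe in MG-cKO females, against 4.999, 2.85, 4.764 and 3.297 times in WT females. Aldoc, the brain form that astrocytes express strongly, stood at 5.846, 5.776, 6.413 and 5.147 times in MG-cKO females, against 3.376, 2.618, 3.004 and 2.002 times in WT females. Region 2 was low for Aldoa but not for Aldoc, which ran from 5.147 to 6.413 times over the MG-cKO regions. The log2 change of Aldoa was 1.27 ± 0.20 (adjusted p 2.38e-05) and that of Aldoc 0.97 ± 0.20 (adjusted p 0.000632). Tpi1, which interconverts the triose phosphates, stood at 5.259, 3.66, 5.422 and 5.547 times in MG-cKO females, against 2.927, 2.387, 3.145 and 2.662 times in WT females, a log2 change of 0.70 ± 0.13 (adjusted p 0.000154).

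In the later steps, Pgk1, which makes the first ATP of the path, stood at 3.579, 2.213, 3.981 and 3.804 times the negative probe in MG-cKO females, against 1.995, 1.447, 1.643 and 1.386 times in WT females. Eno2, the neuronal enolase, stood at 10.19, 6.594, 11.98 and 11.26 times in MG-cKO females, against 5.098, 3.583, 4.678 and 4.417 times in WT females. Pkm, the pyruvate kinase gene, stood at 10.58, 7.782, 13.07 and 11.45 times in MG-cKO females, against 5.624, 3.351, 4.028 and 3.935 times in WT females. In all of these the lowest MG-cKO region, region 2, was still above the highest WT region, region 1. The log2 change was 0.92 ± 0.16 for Pgk1 (adjusted p 7.25e-05), 1.02 ± 0.21 for Eno2 (0.000647) and 1.21 ± 0.19 for Pkm (1.58e-05).

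Of the lactate dehydrogenase subunits, Ldhb, the form enriched in neurons and heart, stood at 6.152, 4.439, 7.609 and 7.408 times the negative probe in MG-cKO females, against 4.133, 2.367, 2.933 and 2.416 times in WT females. Ldha, the muscle form, stood at 1.665, 1.149, 1.373 and 1.684 times in MG-cKO females, against 0.9866, 0.9585, 1.04 and 1.044 times in WT females. Ldha was thus at background in WT females and slightly above it in MG-cKO females. The log2 change was 0.99 ± 0.21 for Ldhb (adjusted p 0.000715) and 0.40 ± 0.13 for Ldha (0.0241). The Ldha call was lost without region 2 of WT females or without region 1 or 4 of MG-cKO females, with adjusted p up to 0.0906 over the left-out regions. Under quantile normalization, which forces all regions to the same distribution, 6 enzymes passed, and Aldoc, Tpi1, Eno2 and Ldhb did not.

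Marker lists and parts of the rest of energy metabolism moved beside these enzymes. Of 24 neuron markers 19 rose and 1 fell, and their summed level was 91.95 to 150.4 in MG-cKO females, against 41.99 to 62.14 in WT females. Of 14 astrocyte markers tested 5 rose (summed level of the 16 measured 41.54 to 45.96 in MG-cKO females, against 22.7 to 31.8 in WT females), and of 14 microglia markers tested 11 fell, where 11.9% of all targets passed as lower (summed level of the 20 measured 22.21 to 23.43 in MG-cKO females, against 25.34 to 26.78 in WT females). The part of cell content in the rise of the enzymes was not tested. Of the other 16 glycolysis genes tested 5 rose and 3 fell, with a list median of -0.06. The summed level of the 26 measured was 46.94 to 62.47 in MG-cKO females, against 36.27 to 44.29 in WT females. Of these 26 genes 15 averaged below 1.2 times the negative probe, which limits what the median shows. The largest changes in that list were those of Gapdh at 1.17 ± 0.23, Pgam1 at 0.87 ± 0.14, Eno1 at 0.84 ± 0.21 and Pfkm, the muscle-type phosphofructokinase, at 0.72 ± 0.12. Of 15 citric acid cycle genes 13 rose, among them the mitochondrial malate dehydrogenase Mdh2 (0.83 ± 0.14) and the succinate dehydrogenase subunit Sdha (0.79 ± 0.11). Of 7 genes of the cytosolic redox shuttles, which carry reducing power from glycolysis into mitochondria, 6 rose, led by Mdh1 (1.34 ± 0.20) and Got1 (1.22 ± 0.14). Of 12 genes of pyruvate entry and oxidation 7 rose and 1 fell, with the pyruvate carrier Mpc2 at 0.82 ± 0.09 and the pyruvate dehydrogenase subunit Pdha1 at 0.62 ± 0.10. None of 9 glucose and lactate transporter genes tested passed. Of the 14 measured 9 averaged below 1.2 times the negative probe, where a change is hard to see. The summed level of these 14 was 17.19 to 19.66 in MG-cKO females, against 15.32 to 16.62 in WT females. Of 15 hypoxia-related genes outside glycolysis 3 rose, among them Bnip3l (0.42 ± 0.11) and Mxi1 (0.41 ± 0.10), and 1 fell, with a list median of 0.004.

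In males the same genotype gave no call. MG-cKO males against WT males had 0 of 10 enzymes past the limma threshold in a comparison where 0.481% of targets passed, though 1498 of 9981 had an unadjusted p under 0.05. None of the enzymes was among those 1498. The log2 changes ran from -0.20 for Pgk1, with a 95% interval of -0.52 to 0.13, to 0.30 for Aldoc, with an interval of -0.11 to 0.72, around a median of -0.04. Aldoa had 3.272, 4.437, 5.447 and 4.944 times the negative probe in MG-cKO males, against 3.66, 5.125, 6.224 and 3.729 times in WT males. Pkm had 3.53, 5.607, 5.268 and 4.917 times in MG-cKO males, against 3.579, 4.205, 4.999 and 3.894 times in WT males. The groups overlapped for all 10 enzymes, and region 1 of MG-cKO males was the lowest of its group for each of them but Ldha. Of 24 neuron markers 0 passed, with summed levels of 43.24 to 59.45 in MG-cKO males and 49.84 to 66.46 in WT males. On the values as deposited, where the median target itself stood 0.32 higher in MG-cKO males, 3 enzymes passed as higher.

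**Figure D2:**
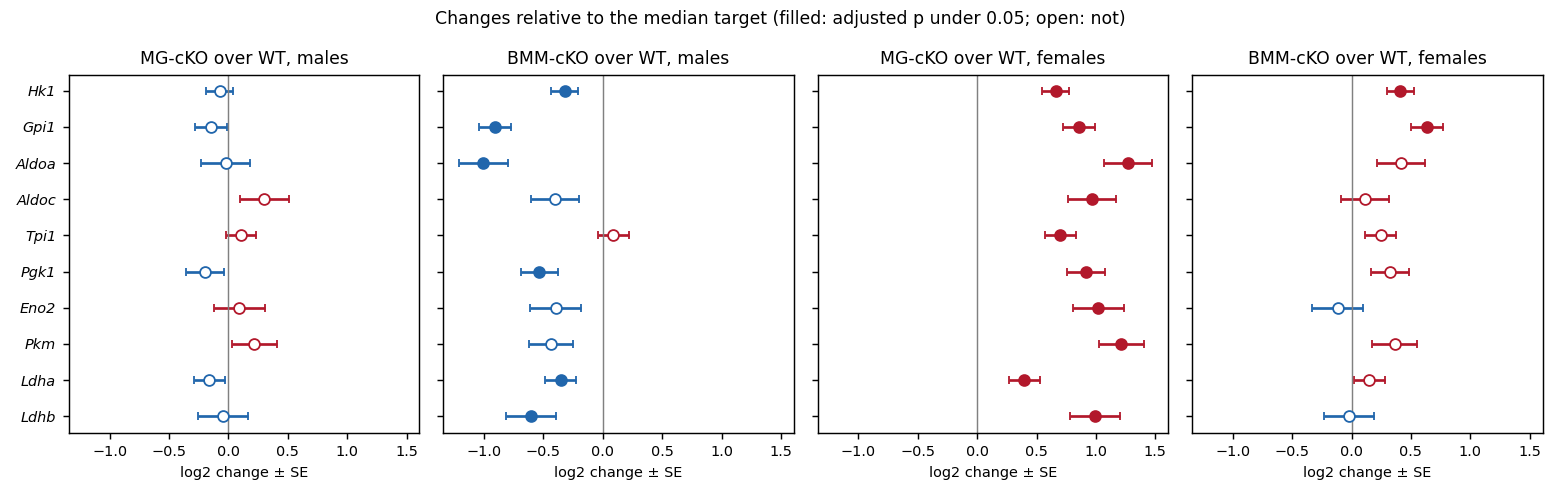
Log2 change of each enzyme with its standard error, relative to the median target of a region, for each knockout over WT of the same sex; filled points had an adjusted p under 0.05. All 10 enzymes were above 0 in MG-cKO females, and 9 of 10 were below 0 in BMM-cKO males, 6 of them past the threshold. On values as deposited all 10 were higher in BMM-cKO males, with the median target 1.49 higher. Those values carry a factor set within each group and do not tell the direction.

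The MG-cKO difference between the sexes was itself tested. The interaction, which is the MG-cKO change in males minus that in females, passed for 9 enzymes, all lower, where 27.1% of targets passed and 14.2% passed as lower (37.9% of the targets averaging above 2 times the negative probe). It was -1.29 ± 0.29 for Aldoa (adjusted p 0.00176), -1.11 ± 0.23 for Pgk1 (0.000822), -1.01 ± 0.19 for Gpi1 (0.000427) and -0.998 ± 0.27 for Pkm (0.00719). Aldoc did not pass (-0.67 ± 0.29, adjusted p 0.0817). These p-values too are over regions, and sex cannot be told apart from scan. The Eno2 interaction (-0.93) was lost without region 3 of WT males, region 2 of WT females or region 3 of MG-cKO females (adjusted p 0.00669 to 0.0553 over the left-out regions), that of Ldha (-0.56) without region 4 of either male group or region 1 or 4 of MG-cKO females (0.0115 to 0.0795), and Aldoc passed without region 2 of MG-cKO males (0.0409 to 0.196). Under quantile normalization 5 enzymes passed. The interaction was lower for 18 of 24 neuron markers and higher for 0, lower for 3 of 14 astrocyte markers, and higher for 8 of 14 microglia markers (12.8% of targets passed as higher); their part was not tested.

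BMM-cKO males against WT males asked the same of the other genotype in males. Relative to the median target, 6 enzymes passed as lower. Aldoa, Gpi1, Ldhb, Pgk1 and Hk1 fell, and the sixth, Ldha, was at background in both groups, so its call does not show a fall of its transcript. In this comparison 53.6% of all targets passed and 25.7% passed as lower; among targets averaging above 2 times the negative probe 40.7% were lower. The median over the enzymes was -0.42. Shared animals would make these p-values, too, smaller than they should be. As ratios to the negative probe, 9 enzymes were lower in every BMM-cKO region than in every WT region, where 27.5% of all targets were. On the values as deposited the direction turned: the median target stood 1.49 higher in BMM-cKO males, and all 10 enzymes were called higher there. Geometric means of the deposited signal were 388.2 in every BMM-cKO male region and 141.37 in every WT male region. The deposited scale thus carries a factor set within each group and does not tell the direction between groups.

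Gpi1 stood at 1.329, 1.683, 1.479 and 1.617 times the negative probe in BMM-cKO males, against 2.623, 2.961, 3.352 and 2.749 times in WT males. Aldoa stood at 1.907, 2.371, 2.277 and 2.409 times in BMM-cKO males, against 3.66, 5.125, 6.224 and 3.729 times in WT males. These were the only enzymes whose log2 change was near 1 in size, at -0.91 ± 0.14 for Gpi1 (adjusted p 3.56e-06) and -1.01 ± 0.20 for Aldoa (0.000166). Ldhb stood at 1.674, 1.687, 1.774 and 1.823 times in BMM-cKO males, against 2.151, 2.65, 3.388 and 2.712 times in WT males, a change of -0.60 ± 0.21 (0.0164). Pgk1 stood at 1.242, 1.322, 1.164 and 1.325 times in BMM-cKO males, against 1.742, 2.04, 2.031 and 1.652 times in WT males, a change of -0.53 ± 0.16 (0.00612). The 4 BMM-cKO regions lay close together, with an SD of 0.0712 for Ldhb and 0.0763 for Pgk1.

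The calls of Hk1 and Ldha were weaker. Hk1 stood at 1.447, 1.647, 1.625 and 1.539 times the negative probe in BMM-cKO males, against 1.771, 2.227, 2.283 and 1.731 times in WT males (log2 change -0.32 ± 0.11, adjusted p 0.0175). Ldha stood at 0.8651, 0.8844, 0.824 and 0.8515 times in BMM-cKO males, against 1.104, 1.02, 1.178 and 1.151 times in WT males (-0.35 ± 0.13, 0.0247), so the BMM-cKO values were below the negative probe. Either call was lost with 1 region left out: for Hk1 region 1 of BMM-cKO males or region 2 or 3 of WT males (adjusted p 0.0114 to 0.0613 over the left-out regions), and for Ldha region 3 of BMM-cKO males or region 1 or 4 of WT males (0.0215 to 0.0619). The Ldhb call was lost without region 3 of WT males, with adjusted p 0.0123 to 0.0605 over the left-out regions. Aldoc (-0.40 ± 0.20), Eno2 (-0.40 ± 0.21) and Pkm (-0.44 ± 0.19, adjusted p 0.0516) did not pass. Pkm did pass without region 1 of WT males (0.0486) and after subtracting the negative probe (0.0345), and with only these groups in the fit Aldoc (0.0159), Eno2 (0.00685) and Pkm (0.0031) all passed as lower. Without the filter on low values 4 enzymes passed, and Hk1 (0.0754) and Ldha (0.0685) did not. Under quantile normalization Tpi1 passed as higher (0.0169). Tpi1 had a change of 0.09 ± 0.13, with 2.455, 2.805, 2.415 and 2.568 times in BMM-cKO males, against 2.161, 2.401, 3.052 and 2.259 times in WT males.

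Beside these enzymes, 16 of 24 neuron markers fell in BMM-cKO males and 0 rose, with summed levels of 34.12 to 38.59 in BMM-cKO males, against 49.84 to 66.46 in WT males. Of 14 microglia markers tested 8 fell and 2 rose (24.07 to 25.72 in BMM-cKO males over 20 markers, against 26.87 to 31.37 in WT males), of 14 astrocyte markers 4 fell, of 11 oligodendrocyte markers 5 fell, and of 11 endothelial and mural markers 4 rose. Their part in the enzymes' fall was not tested. Of the other 16 glycolysis genes 6 fell and 2 rose, with Gapdh at -0.92 ± 0.23, Pgam1 at -0.69 ± 0.14, the liver-type phosphofructokinase Pfkl at -0.43 ± 0.11 and the muscle enolase Eno3 at 0.74 ± 0.10. Of 15 citric acid cycle genes 10 fell, led by the succinate dehydrogenase subunits Sdha (-0.61 ± 0.11) and Sdhd (-0.56 ± 0.10). Of 7 redox shuttle genes 4 fell, with Mdh1 at -0.97 ± 0.20 and Got1 at -0.79 ± 0.14. Of 12 genes of pyruvate entry 4 fell and 3 rose. Of 9 transporter genes 1 fell, Slc2a6 (-0.31 ± 0.07). Of 15 hypoxia-related genes outside glycolysis, a list that mixes targets and regulators of hypoxia-inducible factors, 6 rose and 2 fell. In this comparison 27.8% of all targets passed as higher, and the list median was -0.02. Those that rose include Vhl, whose protein marks hypoxia-inducible factors for degradation, at 0.60 ± 0.07 and the angiogenic factor Vegfa at 0.57 ± 0.08.

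In BMM-cKO females against WT females 2 enzymes passed. Hk1 and Gpi1 rose, where 2.34% of targets passed and 1.35% passed as higher (3.51% of those averaging above 2 times the negative probe), and the median over the enzymes was 0.28, with the same limit on p-values over regions. Gpi1 stood at 3.041, 3.025, 4.182 and 4.491 times the negative probe in BMM-cKO females, against 2.653, 1.846, 2.487 and 1.96 times in WT females, with no overlap (8.68% of targets) and a change of 0.64 ± 0.14 (adjusted p 0.0108). Hk1 stood at 1.832, 2.198, 2.695 and 2.886 times in BMM-cKO females, against 2.083, 1.499, 1.791 and 1.455 times in WT females, with overlap and a change of 0.41 ± 0.11 (0.0473). Without region 3 of BMM-cKO females 1 enzyme passed, where 2.33% of targets passed as higher. It was Gpi1 at 0.58 (adjusted p 0.0157, 0.00482 to 0.0668 over the left-out regions), while Hk1 was at 0.36 (0.0815, 0.00967 to 0.18). The Hk1 call was lost without region 2, 3 or 4 of either group, and the Gpi1 call without region 2 or 4 of WT females. When only the BMM-cKO and WT female regions entered the fit, 0 enzymes passed; on the values as deposited, where the median target stood 0.64 higher in BMM-cKO females, all 10 passed as higher. Of 24 neuron markers 1 rose and 3 fell (38.2 to 72.79 in BMM-cKO females, against 41.99 to 62.14 in WT females). Without region 3 of BMM-cKO females 4 rose and 2 fell (55.98 to 72.79 in BMM-cKO females), and Gpi1 was still the 1 enzyme with no overlap (11.6% of targets).

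Region 3 of BMM-cKO females decided several values of that group. Ldhb stood at 6.044 times the negative probe there, against 2.191, 2.473 and 2.428 times in the other regions. Pgk1 was also highest there, at 3.367 times against 1.592 to 2.179, whereas Aldoc (2.022) and Eno2 (2.656) were lowest there. The region thus held high Ldhb and Pgk1 with low Aldoc and Eno2. Its summed neuron markers, 38.2, were also the lowest of the group. Without the region the Ldhb change between BMM-cKO and WT females was -0.35, against -0.02 with it, and neither passed.

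The BMM-cKO by sex interaction passed for 6 enzymes, all lower, where 45.7% of targets passed and 21.5% passed as lower (40.1% of the targets averaging above 2 times the negative probe). It was -1.55 ± 0.19 for Gpi1 (adjusted p 1.87e-06), -1.42 ± 0.29 for Aldoa (0.000281), -0.85 ± 0.23 for Pgk1 (0.00309), -0.80 ± 0.27 for Pkm (0.0159), -0.73 ± 0.16 for Hk1 (0.000566) and -0.50 ± 0.19 for Ldha (0.0283). Without region 3 of BMM-cKO females 6 enzymes passed too, with Aldoc (-0.73, adjusted p 0.0191, 0.0191 to 0.303 over the left-out regions) in place of Ldha (-0.37, 0.0719, 0.00538 to 0.0719). The Ldha call was also lost without region 4 of WT males or of BMM-cKO females, and Ldhb passed without region 1 of WT females (0.0385 to 0.329). On the values as deposited, where the median target moved by 0.86, 2 enzymes passed, 1 as higher and 1 as lower. Without the filter on low values 4 enzymes passed, and Pkm and Ldha did not. The interaction was also lower for 9 of 24 neuron markers and 6 of 14 astrocyte markers; without region 3 of BMM-cKO females these were 16 and 7, and 22.5% of targets were lower. Their part was not tested. Gpi1 had the largest interaction of the 10 enzymes, with a BMM-cKO change of -0.91 in males and 0.64 in females.

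The knockouts were also set against each other, comparisons that share samples with those above and whose p-values are likewise over regions. In males 5 enzymes were higher in MG-cKO than in BMM-cKO, where 38.5% of targets passed and 18.1% passed as higher (36.4% of those averaging above 2 times the negative probe): Aldoa by 0.98 ± 0.20 (adjusted p 0.000558), Gpi1 by 0.76 ± 0.14 (0.00013), Aldoc by 0.71 ± 0.20 (0.00721), Pkm by 0.65 ± 0.19 (0.00765) and Ldhb by 0.56 ± 0.21 (0.0359). The same 5 were apart in every region, where 19.9% of targets were. On the values as deposited the direction turned, with 9 enzymes lower in MG-cKO males and the median target 1.18 below that of BMM-cKO males. Those values carry a factor set within each group and do not tell the direction. Aldoc stood at 3.432, 7.04, 6.071 and 4.88 times the negative probe in MG-cKO males, against 2.938, 3.163, 3.27 and 3.21 times in BMM-cKO males, so its spread lay almost wholly in MG-cKO males. The Ldhb call was lost without any 1 of the 4 BMM-cKO male regions or without region 2 or 4 of MG-cKO males (adjusted p 0.0422 to 0.0896), and Eno2 passed without region 1 of MG-cKO males (0.0298 to 0.175). Among 24 neuron markers 9 were higher in MG-cKO males and 0 lower, and of 14 microglia markers 7 were higher and 1 lower.

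In females 7 enzymes were higher in MG-cKO than in BMM-cKO, where 14.6% of targets passed and 11% passed as higher (33.9% of those averaging above 2 times the negative probe). The changes were 1.14 ± 0.21 for Eno2 (adjusted p 0.000291), 1.01 ± 0.21 for Ldhb (0.000915), 0.86 ± 0.20 for Aldoa (0.00382), 0.85 ± 0.20 for Aldoc (0.00377), 0.85 ± 0.19 for Pkm (0.00192), 0.60 ± 0.16 for Pgk1 (0.00994) and 0.46 ± 0.13 for Tpi1 (0.015). Without region 3 of BMM-cKO females 8 passed, where 10.2% of targets passed as higher. Ldhb was then at 1.34 (adjusted p 7.33e-08, up to 0.00703 over the left-out regions), Pgk1 at 0.81 (3.64e-05, up to 0.0518), Eno2 at 0.90 (0.00143, up to 0.00259) and Ldha at 0.38 (0.0375, up to 0.602). Aldoa and Aldoc were apart in every region, where 7.78% of targets were; without region 3 Pgk1, Pkm and Ldhb were too, 5 in all, where 11.4% of targets were. Hk1 (0.25 ± 0.11) and Gpi1 (0.22 ± 0.14), the enzymes called in BMM-cKO females, did not differ past the threshold here, with 95% intervals of 0.02 to 0.48 and -0.06 to 0.49. Of 24 neuron markers 19 were higher in MG-cKO females and 0 lower, or 17 and 1 without region 3. The Tpi1 call was lost without region 3 or 4 of MG-cKO females or region 2 of BMM-cKO females (adjusted p 0.0019 to 0.0601), the Pgk1 call without region 3 of MG-cKO females or region 1 of BMM-cKO females (3.64e-05 to 0.0518), and Hk1 passed without region 4 of BMM-cKO females (0.0422 to 0.437). When only these groups entered the fit, or under quantile normalization, 2 enzymes passed.

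The sexes, which cannot be told apart from the scans, were compared within each genotype, with p-values over regions as before. MG-cKO males lay below MG-cKO females for 9 enzymes, all but Aldoc, where 19.7% of targets passed and 13.7% passed as lower (47.3% of those averaging above 2 times the negative probe). For 8 of them every male region lay below every female region, where 24.6% of targets did. The changes ran from -0.40 ± 0.13 for Ldha (adjusted p 0.0315) to -1.12 ± 0.21 for Ldhb (0.000217) and -1.10 ± 0.21 for Eno2 (0.000358). For Aldoc the means were 5.36 ± 1.56 times the negative probe in MG-cKO males and 5.80 ± 0.518 in MG-cKO females (SD, n = 4 each), and the log2 change was 0.00 with a 95% interval of -0.42 to 0.41. The Ldha call was lost without region 1 or 4 of either group (adjusted p 0.0119 to 0.153 over the left-out regions). Under quantile normalization 3 enzymes passed: Pgk1 and Ldha stayed lower, and Aldoc was higher in males at 0.55 (adjusted p 0.031, against up to 0.996 over the other settings). Of 24 neuron markers 17 were lower in MG-cKO males and 0 higher. Of 14 microglia markers 13 were higher, where 6.06% of all targets passed as higher.

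BMM-cKO males lay below BMM-cKO females for 6 enzymes, where 16.9% of targets passed and 11.2% passed as lower (39.1% of those averaging above 2 times the negative probe). As ratios to the negative probe, 8 were lower in every male region, where 24.7% of targets were. The changes were -1.16 ± 0.20 for Aldoa (adjusted p 0.000327), -1.14 ± 0.14 for Gpi1 (3.38e-06), -0.79 ± 0.19 for Pkm (0.00498), -0.66 ± 0.21 for Ldhb (0.0289), -0.62 ± 0.16 for Pgk1 (0.00814) and -0.48 ± 0.11 for Hk1 (0.00415). Without region 3 of BMM-cKO females the count was again 6, where 12% of targets passed as lower. Eno2 (-0.69, adjusted p 0.0133, up to 0.449 over the left-out regions) then stood in place of Ldhb (-0.34, 0.12, which was the highest over the left-out regions). The Ldhb call was also lost without any 1 of the BMM-cKO male regions, and Ldha passed without region 1 or 2 of BMM-cKO females (0.0149 to 0.228). Among 24 neuron markers 4 were lower in BMM-cKO males and 0 higher; without region 3 of BMM-cKO females 13 were lower. Without that region 9 enzymes, all but Aldoc, were lower in every male region, where 29.3% of targets were. On the values as deposited the direction turned, with 8 enzymes higher in BMM-cKO males and the median target 1.22 higher there. Those values carry a factor set within each group and do not tell the direction.

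Between WT males and WT females 2 enzymes passed. Gpi1 and Aldoc were higher in males, where 39.5% of targets passed and 16.3% passed as higher (9.27% of those averaging above 2 times the negative probe), and 0 enzymes were apart in every region (11.4% of targets were higher so). As a share of the enzymes, these 2 calls are near the share of all targets that passed as higher. Gpi1 averaged 2.92 ± 0.32 times the negative probe in WT males and 2.24 ± 0.394 in WT females (SD, n = 4 each), a log2 change of 0.41 ± 0.14 (adjusted p 0.0168). Aldoc averaged 4.33 ± 1.03 times in WT males and 2.75 ± 0.587 in WT females, a change of 0.66 ± 0.20 (0.0103). The Gpi1 call was lost without region 3 of WT males or region 2 or 4 of WT females, the Aldoc call without region 4 of WT females, and Hk1 passed without region 1 of WT females (adjusted p 0.0196 to 0.258). Of 14 astrocyte markers 6 were higher and 1 lower in WT males, and of 14 microglia markers 9 were higher and 1 lower; their part was not tested.

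Ratios between isoenzymes within a region do not depend on the scaling of regions. The log2 ratio of Aldoc over Aldoa was 0.22 ± 0.31 in MG-cKO males, 0.49 ± 0.10 in BMM-cKO males and -0.11 ± 0.11 in WT males (SD, n = 4 each). The female groups had -0.82 ± 0.39 (MG-cKO), -0.82 ± 0.63 (BMM-cKO) and -0.52 ± 0.27 (WT; SD, n = 4 each). All 4 BMM-cKO male regions, at 0.41 to 0.62, lay above the WT male regions, at -0.25 to 0.01, a difference of 0.60 with an exact two-sided permutation p of 0.0286, the smallest that 4 against 4 regions allow. The male regions also lay above the female ones within MG-cKO (difference 1.04) and BMM-cKO (1.31, or 1.01 without region 3 of BMM-cKO females), each with an exact permutation p of 0.0286. The log2 ratio of Ldhb over Ldha was 1.39 ± 0.36 in MG-cKO males and 2.11 ± 0.26 in MG-cKO females, a difference of -0.72 with the same exact p. It was 1.02 ± 0.093 in BMM-cKO males and 1.28 ± 0.24 in WT males, with 1.34 ± 0.47 for BMM-cKO females (1.15 ± 0.34 over the 3 regions without region 3) and 1.52 ± 0.38 for WT females. Over the 18 exact permutation tests of both ratios the smallest adjusted p was 0.129, so no difference passed the correction. With 4 regions a group, at least 11 of the 18 tests would have had to reach the smallest possible p for any to pass, and 4 did, so the correction says little here. These p-values too are over regions. Ldha sat near background, which limits the second ratio.

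**Figure D3:**
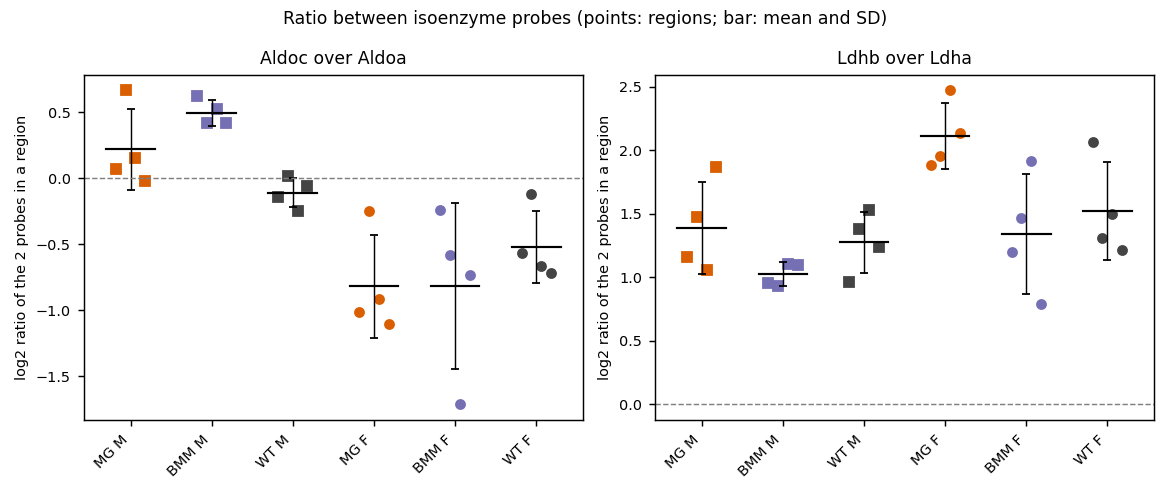
Log2 ratio of the Aldoc to the Aldoa probe and of the Ldhb to the Ldha probe in each region, with the mean and SD of 4 regions; 0 is an equal signal of both probes. Aldoc over Aldoa lay between 0.41 and 0.62 in BMM-cKO males, above the WT male regions; Ldhb over Ldha had its highest mean, 2.11, in MG-cKO females.

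Across regions most of the enzymes varied together, and Aldoc did so least. Over 24 regions, which share groups and a common scaling, the 45 pairs of enzymes had a median Pearson r of 0.774, from 0.155 for Aldoc and Ldha to 0.944 for Gpi1 and Aldoa. Aldoc had a mean r of 0.378 with the others, the lowest, and Aldoa had 0.827, the highest. With group means removed the median was 0.59, and Aldoc had a mean of 0.158, Ldha 0.307 and Eno2 0.327, with Eno2 at -0.132 against Ldhb. Much of this rested on region 3 of BMM-cKO females. Over the 23 regions without it the median was 0.81, or 0.694 with group means removed, and the means with group means removed were 0.437 for Aldoc, 0.284 for Ldha and 0.726 for Eno2. These values describe the regions and carry no p.

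**Figure D4:**
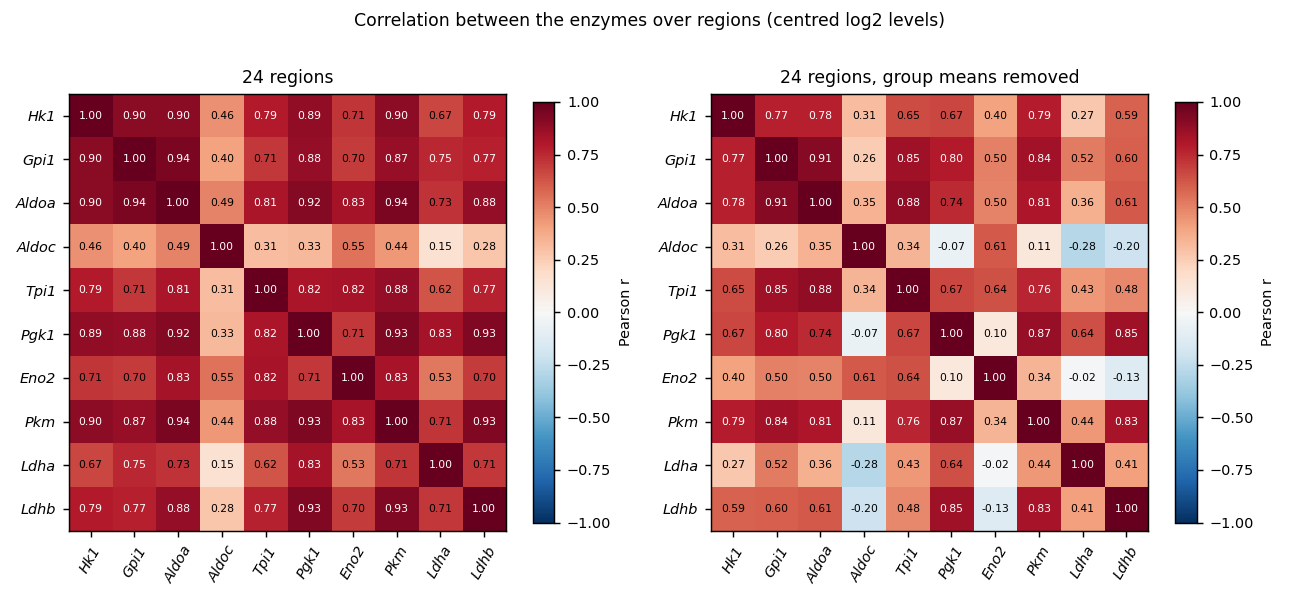
Pearson correlation of centred log2 levels between the 10 enzymes over 24 regions, as they stand (left) and after subtracting group means (right). Most pairs are red, with a median of 0.774 on the left and 0.59 on the right, and the row of Aldoc is palest, with a mean of 0.378 and 0.158 (0.538 and 0.437 without region 3 of BMM-cKO females).

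The targets most like the mean of the 10 enzymes over 24 regions were Gapdh (r = 0.985), the constitutive chaperone Hspa8 (0.976), the phosphoglycerate mutase Pgam1 (0.976), Pdha1 (0.975) and the sodium pump subunit Atp1b1 (0.971). With group means removed they were Gapdh (0.976), the cyclophilin Ppia (0.948), Hspa8 (0.941), Atp1b1 (0.936) and Tecr (0.935). The pair that acts just before and just after Pgk1 in the path, Gapdh and Pgam1, was thus in the first list. Among gene lists, the mean of the redox shuttles had an r of 0.965 with the enzymes, the rest of glycolysis 0.946, the citric acid cycle 0.943, and the hypoxia-related genes outside glycolysis 0.362 (0.587 with group means removed). The neuron markers had 0.873, and 0.406 with group means removed; without region 3 of BMM-cKO females they had 0.979 and 0.875. Astrocyte markers had 0.665 and microglia markers -0.551, and with group means removed 0.366 and -0.0888. Without that region Gapdh was again the target most like the enzymes, at 0.985 and 0.975, and the next were Eef1a2 (0.984) and, with group means removed, Stmn3 (0.959). In the plot against neuron markers, region 3 of BMM-cKO females had neuron markers at -0.73 and enzymes at 0.24 relative to their means over regions. Only region 2 of MG-cKO males (-0.10 and 0.11) and region 2 of WT males (-0.02 and 0.01) were also below the mean for one and above it for the other in that direction.

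**Figure D5:**
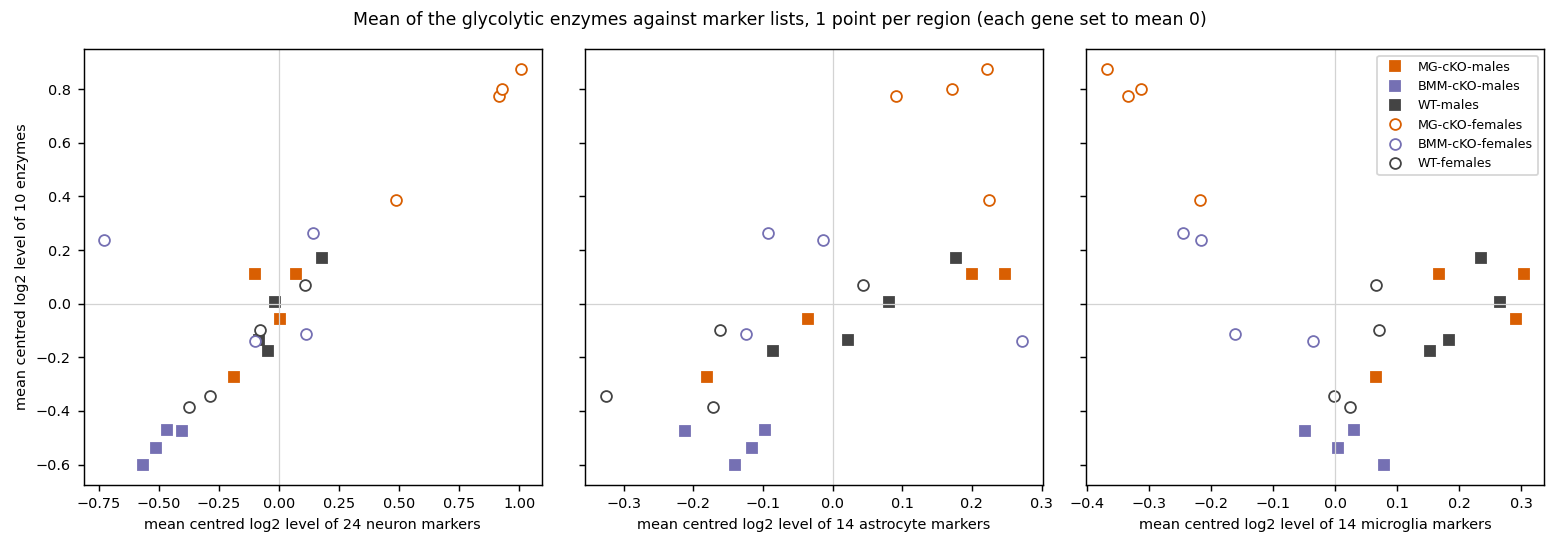
Mean centred log2 level of the 10 enzymes (vertical axis) against that of 24 neuron, 14 astrocyte and 14 microglia markers, 1 point per region, each gene first set to a mean of 0 over the regions. Enzymes and neuron markers lie along a common line (r = 0.873), with MG-cKO females at its upper end, BMM-cKO males at its lower end and 1 BMM-cKO female region apart to the left.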

How the data were processed

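GeoMx probes were hybridized to frozen sections of perfusion-fixed brains and their barcodes sequenced, per the labels' protocols. The deposited values are signal per target and region, per the file headers; the counting and normalization software and the build behind the probes are not given in the sources used here. In each deposited column 99.98% to 99.985% of signal values lay within 0.01 of whole multiples of a single step, taken as 1 tag. Geometric means of the deposited signal were equal within a group and ran from 105.92 to 388.2 between groups, so the authors' values carry a factor set within each group, and regions were rescaled here. Tables of pairs of groups repeated the full table, and a table with ambiguous names was not used.

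Levels are ratios to the negative probe (NegProbe-WTX). For tests, log2(signal + 1) was centred on each region's median over the 9981 targets whose mean, after scaling to equal geometric means, was above that of the median target. limma 3.58.1 in R 4.3.3 (lmFit, eBayes with trend) was fitted with 1 coefficient per group over all 24 regions, with Benjamini-Hochberg adjustment over all 9981 targets and a threshold of 0.05. The fit was tested on simulated data. Isoenzyme ratios were compared with two-sided exact permutation tests. Alternatives were no filter, quantile normalization, scaling to or subtraction of the negative probe, values as deposited, a pseudocount of 10, the compared groups alone, and each region left out. PCR tags are not independent molecules, so depth describes counting error only.

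All 10 enzymes are named. Of other lists, up to 4 called genes (rest of glycolysis) or 2 (others) with the largest changes are named, and the 5 targets most correlated with the enzymes. The enzymes, lists and tests were chosen with earlier results of these data known. Replicate numbers follow deposition order.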

Additional observations from a re-analysis of the deposited data

Results flagged for a closer look

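In 4 of 60 sets of 4 regions 1 region stood far from the other 3, where chance alone would give about 1 in 20. Region 2 of MG-cKO females was low for Hk1, at 2.544 times the negative probe against 3.016 or more in the others, and for Tpi1, at 3.66 against 5.259 or more. Region 1 of MG-cKO males was low for Tpi1, at 1.985 against 2.788 or more. Region 3 of BMM-cKO females was high for Ldhb, at 6.044 against 2.473 or less, and is the region with high Ttr.

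The MG-cKO change differed between the sexes (males minus females, limma interaction over regions, too small a p if regions share animals) by -0.73 for Hk1, -1.01 for Gpi1, -1.29 for Aldoa, -0.59 for Tpi1, -1.11 for Pgk1, -0.93 for Eno2, -0.998 for Pkm, -0.56 for Ldha and -1.04 for Ldhb. The BMM-cKO change differed by -0.73 for Hk1, -1.55 for Gpi1, -1.42 for Aldoa, -0.85 for Pgk1, -0.80 for Pkm and -0.50 for Ldha. Sex and scan cannot be told apart in any of these.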

How the results depend on the processing

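Of 110 log2 changes (10 enzymes in 11 comparisons), all kept their side of the threshold with a pseudocount of 10, and 103 without a filter, 106 when scaled to the negative probe, 96 with the compared groups alone and 79 under quantile normalization. Of the 99 that could be fitted after subtracting the negative probe 93 did; Ldha was under that filter. Quantile normalization turned 1 of them, Aldoc in MG-cKO males against MG-cKO females, to 0.55. Leaving out 1 region kept 977 of 1040 and reversed none. The causes were not tested.

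The number of enzymes called moved as follows. Without a filter it was 1 for BMM-cKO females against WT females, 1 for WT males against WT females, and 4 each for BMM-cKO males against WT males and for the BMM-cKO interaction. Under quantile normalization it was 6 for MG-cKO females against WT females, 2 for MG-cKO females against BMM-cKO females, 4 for WT males against WT females, 3 for MG-cKO males against MG-cKO females and 5 for the MG-cKO interaction. Scaled to the negative probe it was 1 for WT males against WT females. With the compared groups alone it was 9 for BMM-cKO males and 0 for BMM-cKO females against WT of the same sex, 8 for MG-cKO males against BMM-cKO males and 2 for MG-cKO females against BMM-cKO females. As deposited, where the median target shifts, it was 3 for MG-cKO males and 10 for BMM-cKO males against WT males, 10 for BMM-cKO females against WT females, 9 for MG-cKO males against BMM-cKO males, 6 for WT males against WT females and 2 for the BMM-cKO interaction. On that scale the calls turned direction for BMM-cKO males against WT males (10 higher) and MG-cKO males against BMM-cKO males (9 lower). So did those for BMM-cKO males against BMM-cKO females (8 higher), and 1 of the 2 in the BMM-cKO interaction was higher. The deposited scale carries a factor set within each group and does not tell these directions. Single enzymes are given only relative to the median target. Over the left-out regions it was 4 to 6 for BMM-cKO males and 0 for MG-cKO males against WT males, 9 to 10 for MG-cKO females and 0 to 2 for BMM-cKO females against WT females, 4 to 6 between the knockouts in males, 5 to 8 in females, 0 to 3 between the sexes in WT, 8 to 9 in MG-cKO and 5 to 7 in BMM-cKO, and 8 to 10 and 5 to 7 for the MG-cKO and BMM-cKO interactions.

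Over all 9981 targets, and over the centred or scaled settings that kept these targets, the counts ran from 2 to 133 (main 48) for MG-cKO males against WT males, 2526 to 2934 (2977) for MG-cKO females, 5171 to 6273 (5347) for BMM-cKO males and 11 to 304 (234) for BMM-cKO females. Without a filter they were 3120 for MG-cKO females and 8871 for BMM-cKO males, of 19962 targets, and after subtracting the negative probe 916 and 1467, of 2362. With 1 region left out the first was 1 (without region 3 of WT males) to 319 (without region 1 of MG-cKO males) and the last 60 (without region 2 of WT females) to 362 (without region 3 of BMM-cKO females). The edgeR test planned on whole tags was not run, and the deposited values were kept as signal. No paired analysis was possible because replicate numbers follow deposition order and no label ties a region to an animal. Depth limits Ldha above all, with a mean of 1.11 times the negative probe.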
